A study of Mus musculus with 6 samples.

Results

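The genes described here encode the proteins of the mitochondrial ribosome, measured on Affymetrix mouse arrays in cortical pyramidal neurons of mice given the antidepressant fluoxetine or vehicle. An array reads each message through 1 or more probe sets, groups of short probes whose combined brightness, the intensity, is the value used here. The genes were chosen by name: every gene with the single symbol Mrpl or Mrps plus a number in the array's annotation, represented by its probe set of highest mean over the 6 arrays, and kept where the mean of at least 1 treatment group reached an intensity of 50. The rule found 76 genes, 47 Mrpl and 29 Mrps, and all 76 were kept, out of 10830 genes kept on the whole array. No member lay just outside the limit of 50. The 3 nearest to it averaged 121.1 and 128.9 (Mrpl54), 189.9 and 234.6 (Mrpl55) and 226.4 and 240.6 (Mrpl14) on the fluoxetine-titled and the vehicle-titled arrays. Each probe set has its own scale, so intensities rank no gene by abundance.

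The RNA came from Glt25d2 bacTRAP mice of the DU9 line, backcrossed from FVB onto C57BL/6 for 3 to 5 generations, whose transgene puts a tagged cytosolic ribosomal protein under control of Glt25d2 regulatory sequence (the gene is now called Colgalt2) in pyramidal cells of cortex. Translating ribosome affinity purification (TRAP) of cortex pulled down the tagged cytosolic ribosomes with the messages on them. The 3 fluoxetine-titled arrays carry RNA from mice that drank 0.167 mg/ml fluoxetine in 1% saccharine, and the 3 vehicle-titled arrays carry RNA from mice that drank 1% saccharine alone, in both cases for 15 to 18 days. Both groups carried the transgene and drank saccharine. The age of the mice and the number of mice behind each purification are not stated in the labels.

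Mitochondria carry their own ribosome, which translates the few proteins encoded by mitochondrial DNA, all of them subunits of the respiratory chain and ATP synthase. Its RNAs are mitochondrial, but every one of its proteins is encoded in the nucleus, translated on cytosolic ribosomes and imported, and it is that cytosolic translation that TRAP samples. Many of its proteins belong to families shared with bacteria, and the others are found only in mitochondria. Neurons with long axons depend heavily on oxidative phosphorylation, and inherited defects in many of these genes cause disorders of brain, heart and muscle in humans. By subunit, 49 of the 76 members belong to the large and 26 to the small subunit. Mrps30 and Mrps18a are counted in the large subunit despite their names, and Mrps36, now known as a component of the 2-oxoglutarate dehydrogenase complex, stands apart.

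Groups follow the sample titles, hence the words fluoxetine-titled and vehicle-titled. The description of every sample gives the other treatment than its title, and were the descriptions right, each treatment difference would have the other sign. Array medians lay between 23.03 and 23.45, and precision is limited by the small number of arrays. The 2 arrays that carry replicate number 1, one of each treatment, stood apart from the other 4. On the first principal component of the members, which held 75.3% of their variance, these 2 scored 0.58 (fluoxetine-titled) and 0.46 (vehicle-titled), against -0.43, -0.34 and -0.37 on fluoxetine-titled arrays 2 and 3 and vehicle-titled array 2 and 0.10 on vehicle-titled array 3. Vehicle-titled array 3 stood apart in another way. Its 12 astrocyte markers summed to 19547, against 28011 to 35936 on the other 5 arrays, its 10 oligodendrocyte markers to 21289, against 29327 to 39459, its 7 microglial markers above the limit to 1248, against 2046 to 3259, and its 11 interneuron markers to 32654, against 35978 to 41325. None of these markers was listed at 0 on any array, and P2ry12, Tyrobp and Itgam of the 10 microglial markers lay below 50 in both groups. In such purified RNA, cell number, RNA per cell and the purification itself cannot be told apart as sources of these differences. The driver gene Colgalt2 had intensities of 986, 709 and 719 on fluoxetine-titled arrays 1, 2 and 3 and 891, 828 and 918 on vehicle-titled arrays 1, 2 and 3, and all 9 measured markers of layer 5 neurons projecting below the cortex were kept.

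The first comparison asks whether the drug altered the translated messages of these neurons. No mitochondrial ribosomal protein gene passed the test. For 74 of the 76 members, beside 10394 of all 10830 genes, the 95% confidence interval of the difference stayed within 2-fold in either direction. The exceptions among the members were Mrpl14 and Mrpl55. The median log2 difference over the members was -0.081, against -0.0068 over all genes kept, and 57 of 76 differences (75%) were negative, as were 52.2% of those of all genes. Subunits of respiratory complex I had a median of -0.093, with 29 of 33 negative (87.9%), and cytosolic ribosomal protein genes -0.031, with 26 of 41 negative (63.4%). The members' differences by pair, given below, were largest between the 2 arrays numbered 3.

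In limma, adjusted by the Benjamini-Hochberg method over the 19073 probe sets kept, 0 of 76 members had an adjusted p under 0.05 in either direction, and the share of all genes called was 0% for each direction. The smallest adjusted p of a member was 1, and 0 members had an unadjusted p under 0.05, against 64 of all 10830 genes. Blocked on replicate number, limma called 0 members too, the smallest adjusted p was 0.993 and 0 members had an unadjusted p under 0.05, against 369 of all genes. For 2 members (2.63%), Mrpl22 and Mrps22, all 3 fluoxetine-titled values lay below all 3 vehicle-titled values, and for 0 members they all lay above. Of all genes, 1.98% were placed below and 1.63% above in this way. Within pairs of arrays of equal number, 20 members (26.3%) were lower on the fluoxetine-titled array in all 3 pairs, beside 13.1% of all genes, and 3 (3.95%) were higher, beside 10.9%. The share lower in all 3 pairs was 33.3% for subunits of respiratory complex I and 22.0% for cytosolic ribosomal protein genes.

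Mrpl22, a protein of the large subunit whose bacterial relative lines the exit tunnel, had intensities of 1862, 1736 and 1808 on the fluoxetine-titled arrays, against 1994, 2013 and 2305 on the vehicle-titled arrays. Mrps22, a small-subunit protein found only in mitochondria and mutated in a human mitochondrial disease, had 1563, 1508 and 1431 on the fluoxetine-titled arrays, against 1572, 1625 and 1688 on the vehicle-titled arrays. In both genes the groups did not overlap, and the gap between them was small. Mrpl22 averaged 1802 ± 63.0 on the fluoxetine-titled and 2104 ± 174 on the vehicle-titled arrays (SD, n = 3 each), and the log2 difference was -0.22 ± 0.13 (SE). Mrps22 averaged 1501 ± 66.3 on the fluoxetine-titled and 1628 ± 57.8 on the vehicle-titled arrays, and the log2 difference was -0.12 ± 0.12.

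The largest negative difference belonged to Mrpl55, a large-subunit protein of the bacterial L31 family, with 294, 157 and 118 on the fluoxetine-titled arrays, against 303, 179 and 222 on the vehicle-titled arrays. Its log2 difference was -0.38 ± 0.35, with an interval from -1.21 to 0.45, and its differences within pairs 1, 2 and 3 were -0.045, -0.18 and -0.91. The groups overlapped, since fluoxetine-titled array 1 lay above vehicle-titled arrays 2 and 3. The standard error and interval of Mrpl55 come from the fit without a block. Blocked on replicate number, the intervals of Mrpl55 and Mrpl14 stayed within 2-fold, from -0.80 to 0.044 and from -0.54 to 0.27. Mrpl47, related to the bacterial protein L29 at the tunnel exit, had 698, 565 and 511 on the fluoxetine-titled arrays, against 731, 704 and 685 on the vehicle-titled arrays. Only fluoxetine-titled array 1 reached into the vehicle-titled range. Mrpl42 had 3115, 2225 and 2494 on the fluoxetine-titled arrays, against 3605, 2482 and 3074 on the vehicle-titled arrays. Mrps7, whose bacterial relative organises the head of the small subunit, had 1422, 938 and 1052 on the fluoxetine-titled arrays, against 1542, 1133 and 1273 on the vehicle-titled arrays. In each of these 3 genes the groups overlapped, but every pair had the lower value on its fluoxetine-titled array, with log2 differences of -0.27, -0.22 and -0.22, and none passed the test.

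In the other direction the differences were smaller still. Mrps35, a small-subunit protein, had 701, 507 and 548 on the fluoxetine-titled arrays, against 559, 415 and 615 on the vehicle-titled arrays. Mrpl1, whose bacterial relative forms the mobile stalk at the exit site, had 668, 530.1 and 363 on the fluoxetine-titled arrays, against 439, 552 and 399 on the vehicle-titled arrays. Fluoxetine-titled array 1 was the highest of all 6 in both genes, and the groups overlapped. Mrpl18, which in human cells takes part in bringing 5S ribosomal RNA into mitochondria, and Mrpl13 had log2 differences of 0.08 ± 0.20 and 0.071 ± 0.22, beside 0.15 ± 0.20 for Mrps35 and 0.14 ± 0.24 for Mrpl1. Without fluoxetine-titled array 1 the sign turned for Mrpl1, Mrpl13 and Mrpl18, and without vehicle-titled array 2 it turned for Mrps35, Mrpl13 and Mrpl18. The members of known role described further below lay between -0.22 for Mrps7 and 0.017 for Mrpl12, and those not named between -0.21 for Mrpl57 and 0.071 for Mrps26.

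**Figure D1:**
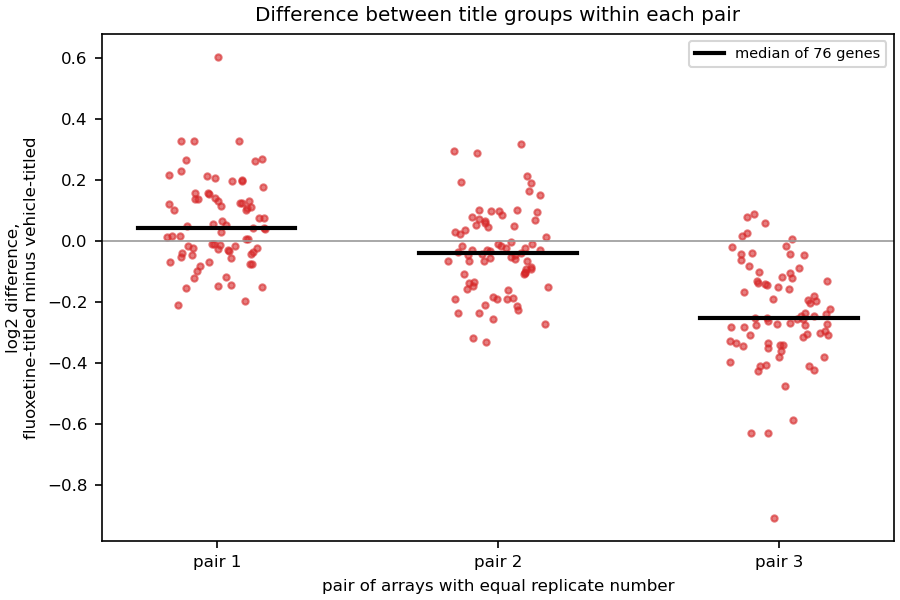
Log2 difference between the fluoxetine-titled and the vehicle-titled array within each pair of arrays of equal replicate number (vertical axis, pairs 1 to 3 on the horizontal axis), with 1 point per mitochondrial ribosomal protein gene and a bar at the median of the 76 genes. The medians are 0.043 in pair 1, -0.037 in pair 2 and -0.25 in pair 3, where 70 of 76 points lie below 0.

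The median difference was 0.043 in pair 1, -0.037 in pair 2 and -0.25 in pair 3, and in pair 3 the fluoxetine-titled value was the lower in 70 of 76 members (92.1%), beside 50.1% of all genes. That value was also the lower in 35 of 41 cytosolic ribosomal protein genes (85.4%) and 32 of 33 subunits of respiratory complex I (97.0%). Their medians in pair 3 were -0.14 and -0.17. For 52 of the 76 members the largest absolute difference of the 3 pairs was that of pair 3, beside 4304 of all 10830 genes. Without both arrays numbered 3 the median over members was 0.00015, with 38 negative and 38 positive differences, and without fluoxetine-titled array 2 alone it was -0.016, with 42 negative. In pair 3 the marker medians differed as well, by 0.78 for astrocyte, 0.54 for oligodendrocyte, 0.67 for microglial and 0.39 for interneuron markers, all higher on the fluoxetine-titled array. The single markers were higher there in 12 of 12, 10 of 10, 6 of 7 and 9 of 11 cases. The log2 ratio of the 3′ to the 5′ Gapdh probe set, a sign of RNA quality, was 1.63 on fluoxetine-titled array 3 and 1.28 on vehicle-titled array 3. The part of those cell types and of RNA quality in the members' difference was not tested.

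Arrays numbered 1 were then set against the other 4, with the treatment of the title as a term. Most messages for mitochondrial ribosomal proteins had higher values on the 2 arrays numbered 1, though few passed the test. The median log2 difference over the members was 0.28, against 0.037 over all genes kept, and 58 of 76 (76.3%) were positive, beside 54.5% of all genes. In limma, 11 members rose (14.5%, beside 5.92% of all genes) and 1 member, Mrpl45, fell (1.32%, beside 6.86%). The split follows replicate numbers and was taken up because earlier results of these data had shown the 2 arrays apart, so its p-values describe these arrays and no condition of the study. What a replicate number stands for is not stated in the labels.

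The 11 members that rose were Mrpl14, Mrpl20, Mrpl33, Mrpl34, Mrpl35, Mrpl48 and Mrpl55 of the large subunit and Mrps5, Mrps6, Mrps16 and Mrps27 of the small subunit, with folds between 1.42 and 1.86 and standard errors between 0.11 and 0.20 on the log2 scale. Both arrays numbered 1 lay above all other 4 in 35 members (46.1%, beside 24.4% of all genes) and below them in 9 (11.8%, beside 19.9%). In the sentences that follow, arrays numbered 1 are given in the order fluoxetine-titled, vehicle-titled, and the other 4 as fluoxetine-titled arrays 2 and 3 and then vehicle-titled arrays 2 and 3.

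**Figure D2:**
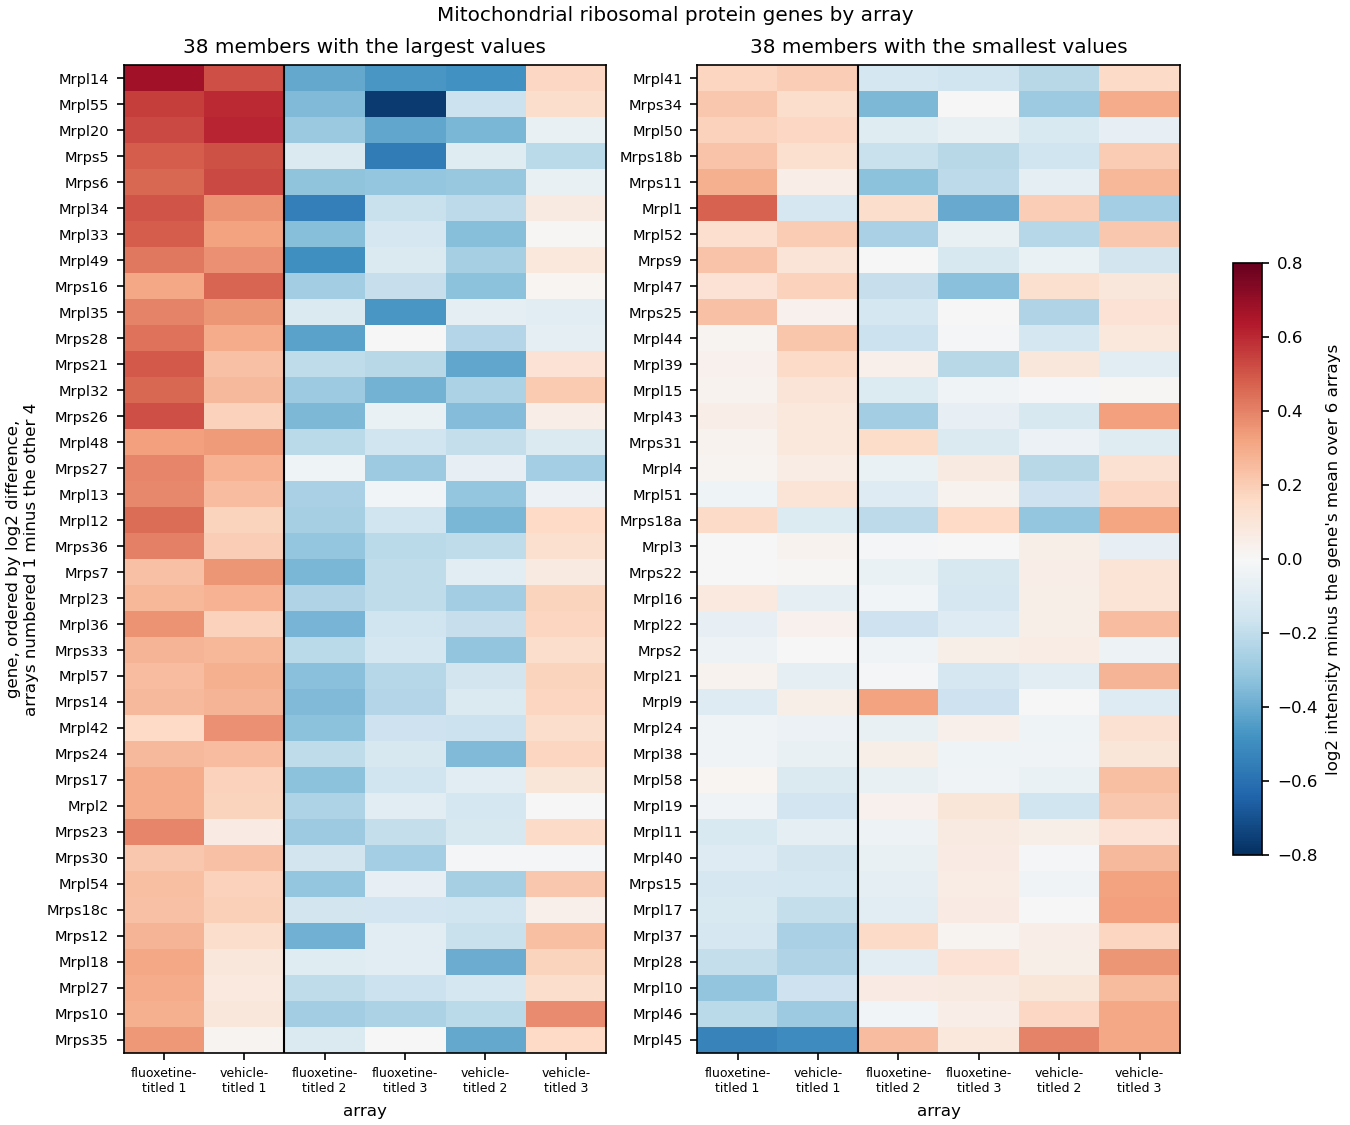
Log2 intensity of each of the 76 genes on each array minus the gene's mean over the 6 arrays (colour, red above and blue below the mean), with genes ordered down the page, left panel first, by the difference between the arrays numbered 1 (the 2 columns left of the black line) and the other 4. The members' medians on the 6 columns from left to right are 0.23, 0.15, -0.17, -0.13, -0.14 and 0.13, so vehicle-titled array 3 lies nearer to the arrays numbered 1 than the other 3 do.

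Among large-subunit members of bacterial family, Mrpl14, whose product in human cells binds the assembly factor MALSU1, had intensities of 352 and 316 on the arrays numbered 1, against 167, 160.3, 158 and 248 on the other 4. Mrpl20, a relative of the bacterial protein L20 that helps fold the large ribosomal RNA, had 3532 and 3739.8 on the arrays numbered 1, against 1993, 1833, 1905 and 2353 on the other 4. Both arrays numbered 1 were the highest in each gene, with vehicle-titled array 3 next. The log2 difference was 0.89 ± 0.20 (SE) for Mrpl14, with a limma adjusted p of 0.0252, and 0.85 ± 0.13 for Mrpl20, with an adjusted p of 0.00748. Mrpl33, a small protein of the bacterial L33 family, had 1664 and 1489.5 on the arrays numbered 1, against 941, 1084, 942 and 1198 on the other 4. Mrpl34, of the L34 family, had 559 and 507 on the arrays numbered 1, against 271, 348, 341 and 415 on the other 4. In both the arrays numbered 1 were again the highest and vehicle-titled array 3 the next. Their log2 differences were 0.60 ± 0.15 (limma adjusted p = 0.0347) and 0.65 ± 0.17 (limma adjusted p = 0.0423). Mrpl55 had 294 and 303 on the arrays numbered 1, against 157, 118, 179 and 222 on the other 4. Its arrays numbered 1 were 0.86 higher on the log2 scale (limma adjusted p = 0.0223), and fluoxetine-titled array 3 was the lowest of all. Mrpl35, named here after its values were seen, had a log2 difference of 0.56 ± 0.14.

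Of large-subunit members found only in mitochondria, Mrpl49 had 769.6 and 740.5 on the arrays numbered 1, against 408, 530.1, 478 and 609.8 on the other 4. Its difference of 0.59 ± 0.17 was the eighth largest among the members, both arrays numbered 1 again lay above the rest, and its limma adjusted p of 0.0523 missed the threshold. Mrpl48, named here after its values were seen, rose by 0.51 ± 0.11 on the log2 scale.

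In the small subunit, Mrps5, a relative of the bacterial protein S5 that helps keep decoding accurate, had 645 and 655 on the arrays numbered 1, against 425, 313, 430.4 and 397 on the other 4. Mrps6, of the bacterial S6 family, had 4489.9 and 4703 on the arrays numbered 1, against 2615, 2638, 2646 and 3129 on the other 4. In both the arrays numbered 1 stood clear of the rest, and vehicle-titled array 3 was the highest of the remaining 4 in Mrps6 but not in Mrps5. The log2 differences were 0.74 ± 0.15 (limma adjusted p = 0.0200) and 0.74 ± 0.12 (limma adjusted p = 0.00970). Mrps16, mutated in a fatal neonatal mitochondrial disease in humans, had 1179 and 1313 on the arrays numbered 1, against 785, 838, 756 and 961 on the other 4, a log2 difference of 0.58 ± 0.14 (limma adjusted p = 0.0303). Mrps27, an RNA-binding protein of the small subunit that was named here after its values were seen, had a log2 difference of 0.50 ± 0.13 (limma adjusted p = 0.0443).

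A single member moved the other way past the threshold. Mrpl45, whose product resembles the import motor component Tim44 and holds the ribosome at the inner membrane beside the tunnel exit, had 549 and 560.3 on the arrays numbered 1, against 944, 844, 1046 and 986 on the other 4. Both arrays numbered 1 lay below all of the rest, without overlap. The log2 difference was -0.78 ± 0.12, with a limma adjusted p of 0.00741, the smallest of the 76 members, followed by that of Mrpl20.

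Mrpl46, a large-subunit protein found only in mitochondria, had 2576 and 2445 on the arrays numbered 1, against 2934, 3101, 3343 and 3692 on the other 4. Mrpl10, which anchors the stalk where translation factors dock, had 559.9 and 621 on the arrays numbered 1, against 730.2, 732, 745 and 830.1 on the other 4. Mrpl28, a relative of bacterial L28, had 2294 and 2215 on the arrays numbered 1, against 2468, 2837, 2709 and 3340.5 on the other 4. In these genes both arrays numbered 1 were also the lowest and vehicle-titled array 3 the highest, but none passed the test: the log2 differences were -0.38 ± 0.13, -0.36 ± 0.12 and -0.32 ± 0.14, with limma adjusted p-values of 0.0888, 0.0749 and 0.166. Mrpl37, Mrpl17, Mrps15 and Mrpl40 followed with -0.30, -0.23, -0.21 and -0.19. All 8 of these largest negative differences but that of Mrps15 came from the large subunit. By subunit, 16 of 49 large-subunit members and 2 of 26 small-subunit members had a negative difference, with medians of 0.23 and 0.33. By descent, the 47 members of bacterial family had a median of 0.30 and the 28 found only in mitochondria 0.26. No difference between these classes was tested.

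**Figure D3:**
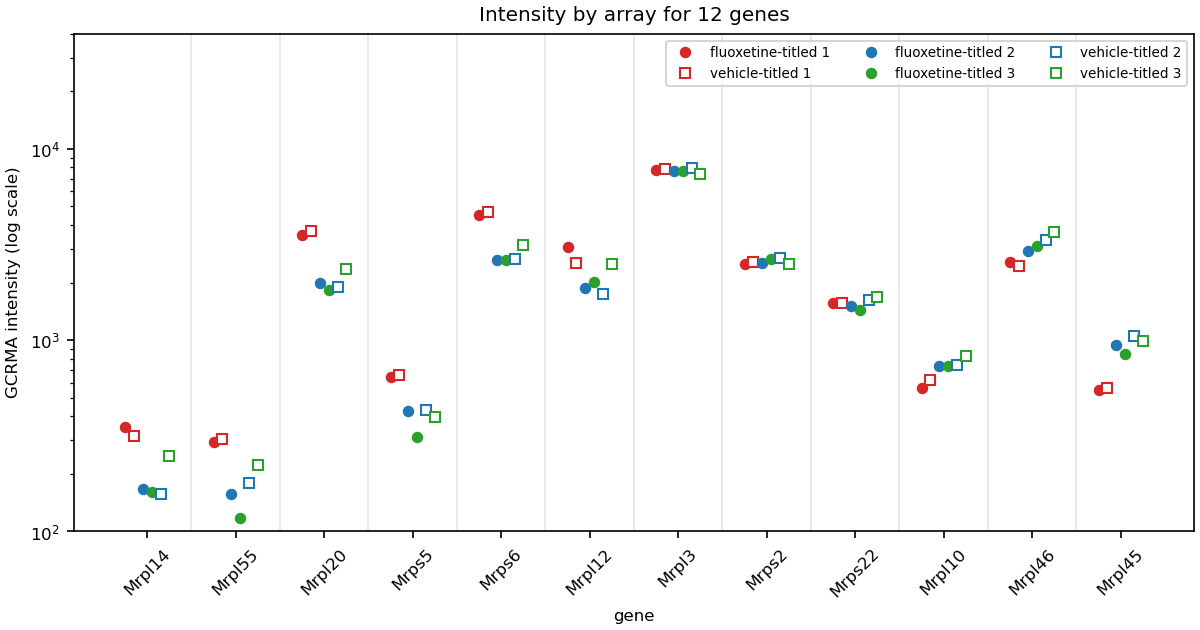
Intensity on each array (vertical axis, log scale) of 12 members, with filled circles for fluoxetine-titled and open squares for vehicle-titled arrays and red, blue and green for arrays numbered 1, 2 and 3. The red points lie above the rest from Mrpl14 to Mrps6, within or near the rest for Mrpl3, Mrps2 and Mrps22, and below the rest for Mrpl10, Mrpl46 and Mrpl45; intensities of different genes share no common scale.

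Members with known roles at the working sites of the ribosome differed among themselves. Mrpl12, which forms the factor-binding stalk on Mrpl10 and in mammals also binds the mitochondrial RNA polymerase, had 3059 and 2535 on the arrays numbered 1, against 1864, 2009, 1742 and 2500.2 on the other 4. Mrpl11, at the base of the same stalk, had 5992 and 6204 on the arrays numbered 1, against 6336, 6852, 6726 and 7060.4 on the other 4. The 3 stalk proteins had log2 differences of different sign, 0.47 for Mrpl12, -0.14 for Mrpl11 and -0.36 for Mrpl10, and none of them passed the test. Mrps12, at the decoding centre, had 2408 and 2199 on the arrays numbered 1, against 1529, 1871, 1767 and 2358 on the other 4. Mrps14, Mrps7 and Mrps34, each mutated in human mitochondrial disease, had log2 differences of 0.40, 0.44 and 0.27, and Mrpl44, which carries a ribonuclease fold, 0.18. None of these passed the test.

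A few members barely varied over the 6 arrays. Mrpl3, next to the peptidyl transferase centre and mutated in a human cardiomyopathy, had 7744 and 7867 on the arrays numbered 1, against 7678, 7703, 7981 and 7387 on the other 4. Mrps2, whose bacterial relative S2 joins the small subunit late in assembly, had 2507 and 2570.5 on the arrays numbered 1, against 2521, 2663, 2684 and 2502 on the other 4. The arrays numbered 1 lay inside the range of the other 4 in both. Their differences were 0.023 ± 0.11 and -0.03 ± 0.11 on the log2 scale, beside 0.0074 ± 0.12 for Mrps22, and the sign for Mrpl3 and Mrps22 turned under quantile normalization.

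Mouse has 3 genes for proteins related to bacterial S18, which occupy different places: Mrps18b and Mrps18c in the small and Mrps18a in the large subunit. Mrps18b had 1154 and 1075 on the arrays numbered 1, against 870.4, 846, 883 and 1137 on the other 4. Mrps18c had 2666 and 2588 on the arrays numbered 1, against 2052, 2040.3, 2033 and 2333 on the other 4. Mrps18a had 3210.0 and 2669 on the arrays numbered 1, against 2496, 3226, 2324 and 3596 on the other 4. Both arrays numbered 1 were the highest in Mrps18c, and the fluoxetine-titled one was in Mrps18b, with log2 differences of 0.26 for Mrps18b and 0.31 for Mrps18c. Mrps18a was highest on vehicle-titled array 3 and had 0.031, a value whose sign turned under 5 settings, quantile normalization among them. Mrps36, the component of 2-oxoglutarate dehydrogenase, had 0.45. None of these 4 passed the test.

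The 39 members outside the rule for named genes had differences between -0.14 for Mrpl19 and 0.56 for Mrpl35, of which 32 were positive and 7 negative. Of these 39, 3 rose (7.69%, beside 5.92% of all genes) and 0 fell (beside 6.86%), and in 20 both arrays numbered 1 lay above the other 4 (51.3%, beside 24.4%), in 0 below (beside 19.9%). The rule had already taken out the 8 largest rises and the 8 largest falls of this comparison, so the absence of falls followed from it. For the same reason the counts of these 39 cannot be compared with the shares of all genes. Mrps28, Mrps21, Mrpl32 and Mrps26, picked here after their values were seen, came closest to the threshold among those that missed it, with 0.55, 0.54, 0.54 and 0.52. Mrps21 had 1793 and 1496 on the arrays numbered 1, against 1107, 1094, 955 and 1378 on the other 4. Mrpl32, which in mouse must be cut by a mitochondrial protease before it joins the ribosome, had 1348 and 1176 on the arrays numbered 1, against 803, 756, 823 and 1134 on the other 4. Both arrays numbered 1 were the highest in each of these genes.

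**Figure D4:**
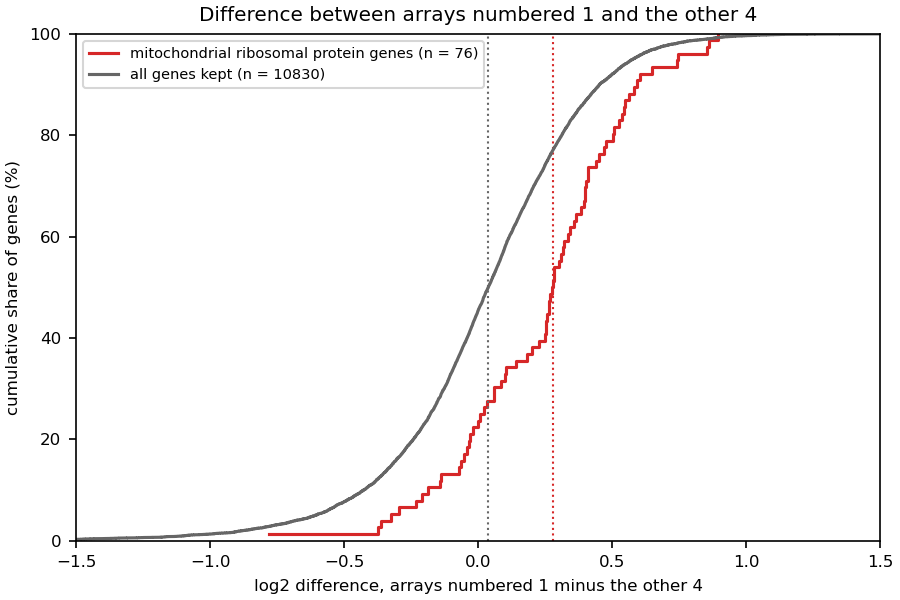
Cumulative share of genes (vertical axis, percent) by log2 difference between arrays numbered 1 and the other 4 (horizontal axis), for the 76 mitochondrial ribosomal protein genes in red and all 10830 genes kept in grey, with dotted lines at the medians of 0.28 and 0.037. The red curve lies right of the grey one along most of its length, and Mrpl45 is its lone point at -0.78.

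Vehicle-titled array 3 shared part of the pattern. It lay above the other 3 arrays not numbered 1 in 60 of 76 members (78.9%), beside 29.5% of all genes, by a median of 0.29 on the log2 scale over their mean. Over all 6 arrays, the highest value of a member fell on fluoxetine-titled array 1 in 31 genes, on vehicle-titled array 3 in 23, on vehicle-titled array 1 in 17, and on vehicle-titled array 2, fluoxetine-titled array 2 and fluoxetine-titled array 3 in 3, 2 and 0. In the same order these are 40.8%, 30.3%, 22.4%, 3.95%, 2.63% and 0% of members, beside 21.3%, 16.0%, 20.8%, 16.2%, 12.7% and 12.9% of all genes. Of the 11 members that rose, 8 had vehicle-titled array 3 above the other 3. Without that array limma called 28 members, 27 of them higher, of which 10 were among the 11, and 8.36% of all genes were then called higher. With fluoxetine-titled array 1 left out limma called 0 members, and of all genes 0.0185% higher and 0.693% lower. With vehicle-titled array 1 left out it called 0 members too, and of all genes 0.434% higher and 1.31% lower. Without both arrays numbered 3 it called 29, of which 28 were higher, beside 9.07% of all genes.

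**Figure D5:**
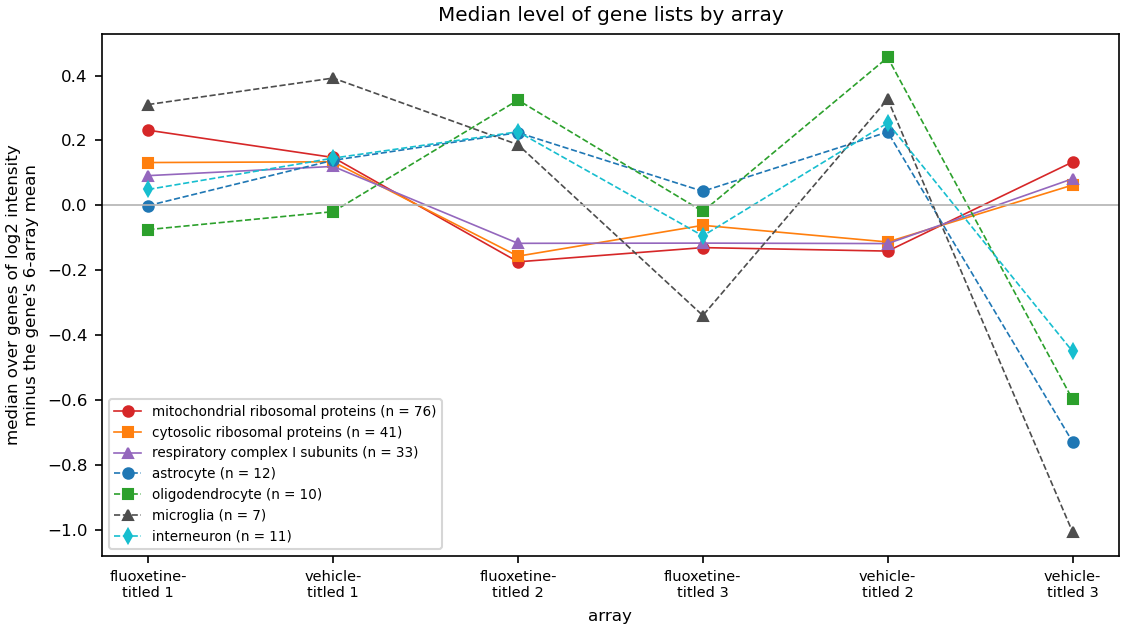
Median over the genes of a list of log2 intensity minus the gene's mean over 6 arrays (vertical axis), by array (horizontal axis, arrays numbered 1 first), for the 76 mitochondrial ribosomal proteins, 41 cytosolic ribosomal proteins, 33 complex I subunits and the markers of 4 other cell types. The 3 solid lines run together, high on the arrays numbered 1 and on vehicle-titled array 3, and the dashed marker lines drop on vehicle-titled array 3, to -0.73 for astrocyte and -1.01 for microglial markers.

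Other gene groups were placed in the same way on these arrays. Of 41 cytosolic ribosomal protein genes, 5 rose (12.2%) and 0 fell on arrays numbered 1, with a median of 0.19. Of 33 subunits of respiratory complex I, 3 rose (9.09%) and 0 fell, with a median of 0.17. Of all genes, 5.92% rose and 6.86% fell. Of 35 subunits of complexes III and IV and ATP synthase, 5 rose and 0 fell, with a median of 0.20. Both arrays numbered 1 lay above the other 4 in 58.5% of the cytosolic ribosomal and 45.5% of the complex I genes, beside 46.1% of the members. Vehicle-titled array 3 lay above the other 3 arrays not numbered 1 in 82.9% and 87.9% of these genes, beside 78.9% of the members. The difference between these lists and the mitochondrial ribosomal proteins was not tested. Slc17a7, the vesicular glutamate transporter of cortical pyramidal cells, fell on the arrays numbered 1, with 953 and 663 on them, against 1999, 1438, 1551 and 1895 on the other 4. Tbr1, a transcription factor of deep-layer excitatory neurons, and Crim1, a marker of corticospinal neurons, fell by 0.55 and 0.78 on the log2 scale. The remaining 3 of 5 excitatory and 8 of 9 layer 5 markers did not pass the test. The 9 layer 5 markers had a median of 0.085, with 6 positive and 3 negative differences, and the 5 excitatory markers -0.028, with 1 positive and 4 negative. Both arrays numbered 1 lay above the other 4 in 3 and below them in 2 of the 9 layer 5 markers. Astrocyte markers summed to 28011 and 30170 on the arrays numbered 1, against 19547 to 35936 on the other 4, and 0 of 12 rose while 1 fell. Oligodendrocyte markers summed to 29327 and 29528, against 21289 to 39459, with 0 of 10 higher and 1 lower past the test. Microglial markers summed to 2792 and 3259, against 1248 to 2926, and interneuron markers to 40109 and 40626, against 32654 to 41325, and 0 of these 7 and 11 passed the test. The 5 of 10 vessel markers above the limit summed to 1865 and 1328 on the arrays numbered 1, against 1021 to 1649 on the other 4, and 0 of 5 passed. A control probe set in the middle of the actin message had 5729 and 5794 on the arrays numbered 1, against 8961 to 11010 on the other 4, and the one at its 3′ end 25791 and 28129, against 34732 to 39265. The log2 ratio of the 3′ to the 5′ actin probe set lay between 2.70 and 3.08 over all 6 arrays, lowest on fluoxetine-titled array 1. That of Gapdh spread further, with 0.88 and 1.25 on the arrays numbered 1, against 1.37, 1.63, 1.23 and 1.28 on the other 4. The control probe set for the B1 repeat had 5476 and 6123 on the arrays numbered 1, against 9469, 19522, 10257 and 11230 on the other 4. The part of these features in the members' differences was not tested.

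Some members were read by further probe sets. Second probe sets above the limit existed for 31 members, 52 in all, of which 36 had the sign of the chosen one and 16 the opposite. For 4 of the 11 members that rose there were 7 such probe sets, all 7 of the same sign. Only 1 of them, for Mrps6, passed the test as well, with a log2 difference of 0.75 and a limma adjusted p of 0.0233. The rest had smaller differences than the chosen probe sets. They were 0.17, 0.071 and 0.20 for Mrps5 (chosen 0.74), 0.34 and 0.0085 for Mrpl48 (chosen 0.51) and 0.13 for Mrpl35 (chosen 0.56). Among members whose chosen probe set missed the threshold, 7 second probe sets of 6 members passed as higher, with log2 differences between 0.61 and 1.04. They read Mrpl15, Mrpl27, Mrpl44, Mrpl49, Mrpl50 and, with 2 of them, Mrps23. One of Mrps14 passed as lower, by -0.78 against 0.40 for the chosen one. Of the 76 probe sets, 42 carry a plain name, 23 the suffix for several transcripts of 1 gene and 11 a suffix that marks probes shared with other sequences, among them those of Mrps6 and Mrpl48, so the values of those 11 are less certain to be one gene's.

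The start sites of the members were read from RefSeq on assembly GRCm38.p6, for 67 of the 76 genes. Nuclear respiratory factors are known to act at the promoters of many nuclear genes for mitochondrial proteins. In the window from 250 bases before to 50 after the start, on either strand, the motif of NRF1 (GCGCA, then any base, then GCGC) stood in 12 of 67 (17.9%), beside 11.1% of the genes kept on the arrays and 4.78% of all genes. The motif of ETS factors such as GABPA (CCGGAAG) stood in 24 (35.8%), beside 18.3% and 9.12%, and that of YY1 (AAGATGGCG) in 8 (11.9%), beside 3.42% and 1.49%. The GC box GGGCGG stood in 34 (50.7%), beside 66.3% and 35.9%, and the TATA box TATAAA in 4 (5.97%), beside 6.73% and 14.2%. The median log2 difference on the arrays numbered 1 was 0.32 for the 12 members with the NRF1 motif and 0.28 for the 55 without, and 0.29 for the 24 with the ETS motif and 0.28 for the 43 without. It was 0.39 for the 8 with the YY1 motif and 0.28 for the 59 without, 0.37 for the 34 with the GC box and 0.20 for the 33 without, and 0.18 for the 4 with the TATA box and 0.28 for the 63 without. No test was run on these shares or medians, and a match is a run of letters, not a shown binding site.

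Sequence upstream of the start follows for the rises of Mrpl14 and Mrpl20, for the fall of Mrpl45, and for Mrpl46, Mrps12 and Mrpl43. Mrpl14, Mrpl46, Mrps12 and Mrpl43 each share their promoter with a neighbour read the other way. Each is written 5′ to 3′ on the strand of the named gene, with matches to the NRF1, ETS and YY1 motifs in capitals. For genes that share a promoter the stretch runs from one start to the other. On GRCm38.p6 the stretch of Mrpl14 lies at chr17:45686219-45686348 (plus strand), Mrpl20 at chr4:155802628-155802877 (plus), Mrpl45 at chr11:97315466-97315715 (plus), Mrpl46 at chr7:78783090-78783130 (minus), Mrps12 at chr7:28741822-28741967 (minus) and Mrpl43 at chr19:45006443-45006557 (minus).
Mrpl14: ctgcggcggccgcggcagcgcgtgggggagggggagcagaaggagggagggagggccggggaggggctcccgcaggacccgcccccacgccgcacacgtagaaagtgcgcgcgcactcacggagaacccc
Mrpl20: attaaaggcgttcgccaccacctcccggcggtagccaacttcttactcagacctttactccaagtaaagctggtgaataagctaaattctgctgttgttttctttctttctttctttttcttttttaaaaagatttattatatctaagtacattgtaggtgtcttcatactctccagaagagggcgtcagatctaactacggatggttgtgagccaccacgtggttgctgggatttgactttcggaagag
Mrpl45: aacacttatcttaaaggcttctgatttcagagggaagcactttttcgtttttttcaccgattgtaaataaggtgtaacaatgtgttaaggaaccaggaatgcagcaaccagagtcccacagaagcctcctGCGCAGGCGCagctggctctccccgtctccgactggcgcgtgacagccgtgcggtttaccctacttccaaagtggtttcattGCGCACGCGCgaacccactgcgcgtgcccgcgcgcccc
Mrpl46: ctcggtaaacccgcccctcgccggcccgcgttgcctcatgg
Mrps12: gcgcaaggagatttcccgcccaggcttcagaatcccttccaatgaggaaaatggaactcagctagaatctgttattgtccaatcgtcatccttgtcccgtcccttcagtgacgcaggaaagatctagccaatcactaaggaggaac
Mrpl43: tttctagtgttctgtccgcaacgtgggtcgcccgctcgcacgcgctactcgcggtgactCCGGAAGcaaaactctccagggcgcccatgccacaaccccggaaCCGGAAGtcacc
The upstream sequence of Mrpl45 held 2 matches to the NRF1 motif and that of Mrpl43 held 2 to the ETS motif. The stretches printed for Mrpl14, Mrpl20, Mrpl46 and Mrps12 held none of the 3 motifs. In the longer window used for the shares above, however, Mrpl14 held the NRF1 motif and Mrps12 the ETS motif. Both were counted there among the members with these motifs, while Mrpl20 and Mrpl46 held none of the 3 in that window either.

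A gene on the other strand started within 400 bases for 20 of 67 members (29.9%), beside 11.4% of the genes kept and 7.27% of all protein-coding genes. Mrpl46 and Mrps11 start 41 bases apart, the whole of the sequence printed for Mrpl46, and their log2 differences on the arrays numbered 1 were -0.38 and 0.26. Mrps12 and Sars2, the mitochondrial seryl-tRNA synthetase, start 146 bases apart, and Sars2 fell, with 185 and 136 on the arrays numbered 1, against 231, 219, 246 and 242 on the other 4, while Mrps12 had 0.31. Mrpl43 and Twnk, the helicase of mitochondrial DNA, start 115 bases apart and had 0.10 and -0.092. Mrpl14 and the channel gene Tmem63b start 130 bases apart, and Tmem63b had -0.079 where Mrpl14 had 0.89. Of the 14 partners outside the family that were kept, 0 rose (beside 5.92% of all genes) and 1 fell (beside 6.86%). The sign was that of the member in 8 of the 14, where 54.5% of all genes had a positive difference. The agreement in sign was not tested.

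The other genes of mitochondrial translation were read list by list on the arrays numbered 1, where 5.92% of all genes rose and 6.86% fell. The lists were not tested against these shares. Of 4 ribosomal proteins with other names, 1 rose and 0 fell on the arrays numbered 1, namely Chchd1, with 4753 and 4087 on the arrays numbered 1, against 2470.0, 2964, 2533 and 3489 on the other 4. Gadd45gip1 had a log2 difference of 0.23 and Dap3, a GTP-binding protein of the small subunit, -0.12. Of 13 translation factors, 1 rose and 0 fell, namely the elongation factor gene Gfm1 (log2 difference 0.51), beside 0.42 for the RNA-binding Slirp, -0.40 for the elongation factor gene Tsfm and -0.28 for Slirp's partner Lrpprc. Of 24 genes of ribosome assembly and ribosomal RNA modification, 1 rose, the rRNA methyltransferase gene Tfb1m (0.66), and 1 fell, Rcc1l (-0.54). Mettl15 had 0.54 and the GTPase gene Eral1 -0.39. The list medians were 0.13, 0.14 and 0.095.

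Of 17 mitochondrial aminoacyl-tRNA synthetases and partner enzymes above the limit of 50, out of 19 on the array, 2 rose and 1 fell. Of all genes, 5.92% rose and 6.86% fell. Yars2, which charges tyrosine, had 541 and 546 on the arrays numbered 1, against 286, 272, 256 and 249.5 on the other 4, a log2 difference of 1.03 ± 0.12 (limma adjusted p = 0.00233). Qrsl1, a subunit of the amidotransferase that completes glutaminyl-tRNA, rose by 0.59, Sars2 was the gene that fell, and Tars2 had -0.31. Mars2 and Wars2 lay below the limit. Of 14 genes of mitochondrial DNA expression and its regulators, out of 15 on the array, 0 rose and 2 fell: the transcription factor gene Tfb2m (-0.52) and the coactivator gene Ppargc1b (-0.52). The polymerase subunit gene Polg2 had -0.55, Gabpb1 0.38 and Ssbp1, the single-stranded DNA-binding protein gene, 0.34, and Mterf1a lay below the limit. These lists had medians of 0.084 and -0.046. Between fluoxetine-titled and vehicle-titled arrays, 0 genes of any of these 5 lists passed the test, beside 0% of all genes in each direction. Among the ribosomal proteins with other names, the treatment difference was 0.046 for Dap3, -0.041 for Ptcd3 and -0.064 for Gadd45gip1. The 2 largest values in each direction were 0.11 for Tsfm, 0.095 for Gfm1, -0.12 for Mrrf and -0.14 for Slirp among the translation factors. Assembly genes ranged further, with 0.24 for Eral1, 0.18 for Trub2, -0.24 for Rbfa and -0.33 for Mettl17. The synthetases had 0.11 for Qrsl1, 0.089 for Yars2, -0.21 for Gatc and -0.23 for Ears2, and the genes of mitochondrial DNA expression 0.25 for Polg2, 0.17 for Ppargc1a, -0.21 for Ppargc1b and -0.22 for Gabpa.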

How the data were processed

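Per the submitters' processing notes, the authors made the deposited linear intensity of each probe set with GCRMA, which corrects background from probe sequence and normalizes between arrays. Its settings are not known here. Per the labels' protocols, 15 ng of RNA went into a 2-cycle amplification. Control probe sets (64 of 45101) were left out, and 19073 with a group mean of at least 50 were kept. The platform annotation gave 34945 probe sets 1 symbol and 932 several, and did not list 9160. Mrpl30 and Mrpl53 had no single symbol and were not analysed.

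The fits used lmFit and eBayes of limma 3.58.1 under R 4.3.3 on log2 intensities, two-sided, with Benjamini-Hochberg adjustment over probe sets kept, at a threshold of 0.05, and the code was first tested on simulated data. Treatment was fitted without a block and, as an alternative, with the replicate number as a block. Samples were paired by the titles' numbers, whose meaning the labels do not state. Deviations from group means correlated at 0.74, 0.60 and 0.50 within pairs 1, 2 and 3. Across pairs the correlations lay between -0.59 and 0.26. With 3 arrays per group these values depend on one another. Arrays numbered 1 were compared with the other 4 with treatment as a term. The labels speak of biological replicates.

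Members, lists and comparisons were chosen with earlier results of these data known. Genes named were the 8 largest differences in each direction for the arrays numbered 1, members without overlap and the 4 largest differences in each direction for treatment, 12 genes of known role, the Mrps18 paralogs, and in the other lists the 2 largest differences in each direction. Alternatives were other normalizations, filters and probe sets, an intensity trend, no treatment term and arrays left out.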

Additional observations from a re-analysis of the deposited data

Results flagged for a closer look

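Vehicle-titled array 3 stood apart from the other 3 arrays not numbered 1 in 6 of 38 items tested for a single array far from the rest of its group, a test that flags about 1 in 20 groups by chance. The items are the members named in the report and the members' median, and they are not independent. Some of the members were named for their differences on these same arrays. The share of all genes flagged in this way was not computed, so the count cannot be called particular to the members. The intensity on that array was 830.1 for Mrpl10, against 730.2, 732.5 and 745.0 on fluoxetine-titled arrays 2 and 3 and vehicle-titled array 2. For Mrpl14 it was 248.0, against 166.6, 160.3 and 157.8 on the same 3 arrays. For Mrps6 it was 3129, against 2615, 2638 and 2646. The other genes were Mrps18b, with 1137 on vehicle-titled array 3 against 870.4, 845.8 and 883.4, and Mrps18c, with 2333 on vehicle-titled array 3 against 2052, 2040.3 and 2033. The members' median, relative to each gene's mean over 6 arrays, was 0.13 on vehicle-titled array 3, against -0.17, -0.13 and -0.14 on those 3.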

How the results depend on the processing

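The count of members called between arrays numbered 1 and the other 4, 12 as reported beside 12.8% of all genes, was 20 with an intensity trend in eBayes (beside 16.2%), 4 with no filter on intensity (5.93%), 21 of 128 with all kept probe sets (15.3%), 7 of 58 with plain-named probe sets (13.4%), and 29 without both arrays numbered 3 (17.8%). The last 2 settings were chosen after seeing the data. With 1 array left out the count ran from 0 to 28. It was 0 without fluoxetine-titled array 1 (beside 0.711% of all genes) or vehicle-titled array 1 (1.75%), where the lone array is assumed to vary like the others. It was 5 without fluoxetine-titled array 2 (7.70%) or 3 (5.58%), 6 without vehicle-titled array 2 (8.66%) and 28 without vehicle-titled array 3 (16.2%). The cause was not tested. Under the other settings it lay between 8 and 16, beside 12.1% to 17.2% of all genes. The lowest, 8, was the count without both arrays numbered 2, beside 12.1% of all genes. The median ran from 0.17 to 0.41 with 1 array left out, the highest without vehicle-titled array 1. Between treatments 0 members were called under every setting, and the replicate block left the median at -0.081 and changed no call. That median ran from -0.19 to -0.016 with 1 array left out. Without both arrays numbered 3 it was 0.00015, without those numbered 1 -0.14 and without those numbered 2 -0.090, settings chosen after seeing the data. Among named members, 3 differences on the arrays numbered 1 and 14 treatment differences had the other sign under at least 1 setting, none of them past the threshold.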
